A study of Mus musculus with 8 samples.

Results

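The Nrf2 antioxidant response was followed here through 10 genes, matched by symbol to the gene identifiers of the count tables, out of 55487 genes in each table. They are the regulators Nfe2l2 and Keap1, the glutathione genes Gclc, Gclm and Slc7a11, the thioredoxin and sulfiredoxin genes Txnrd1 and Srxn1, and the detoxification genes Nqo1, Hmox1 and Osgin1. Liver RNA was sequenced in 4 controls, mice 154, 159, 181 and 193, and in 4 Mc1r LKO mice, 141, 156, 157 and 182. Both groups were adult males that carried the floxed Mc1r allele on both chromosomes (Mc1r fl/fl) and had eaten the Western diet for 12 weeks, and the Mc1r LKO mice carried in addition the Alb-Cre transgene, in which the albumin promoter drives a recombinase that deletes Mc1r in hepatocytes and leaves it in the other cells of the liver. The controls were age-matched and had no Cre, so the transgene itself and the loss of Mc1r cannot be told apart. The comparison asks whether genes that respond to oxidative stress moved with the metallothionein genes Mt1 and Mt2, which were higher in the Mc1r LKO livers.

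Nrf2, the protein of Nfe2l2, is a transcription factor that the adaptor Keap1 binds in the cytoplasm and hands to a ubiquitin ligase for degradation. Oxidants and electrophiles modify cysteines of Keap1, Nrf2 escapes and enters the nucleus, and together with small Maf proteins it binds antioxidant response elements (AREs) near genes for glutathione synthesis, thioredoxin reduction, quinone and heme breakdown. Because Nrf2 is controlled largely at the protein level, its targets are the usual mRNA readout of the response, and the mRNA of Nfe2l2 is not. Metallothioneins are small cysteine-rich proteins that bind zinc and copper, and their genes are driven by the zinc-sensing factor MTF1 through metal response elements (MREs) as well as by glucocorticoids and oxidative stress.

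Each library held from 10773151 to 24763375 counted read pairs, with no difference detected by genotype (two-sided exact permutation test, p = 0.8, where 4 mice against 4 allow no p below 0.0286). Mc1r itself had 0 counts in every mouse, control and Mc1r LKO alike, which allows up to 3 counts, or 0.121 to 0.279 CPM, and covers counting error only. The genotypes could therefore not be checked against it. The summed level of 5 hepatocyte marker genes was between 72026 and 88032 CPM (counts relative to the TMM-scaled total of a library) in control mice and between 78084 and 99931 CPM in Mc1r LKO mice. Mice 181 and 182, 1 of each genotype, stood apart from the other 6 on the first principal component of all genes, which held 37.6% of the variance (scores of 27.8 and 59.3, against -28.2 to -7.03). Values without one or both of them are given for the genes and lists that they moved most. In RNA from whole liver, fewer cells of a type and less RNA per cell cannot be told apart.

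In the sequence upstream of the members, the letters that define the response could be read directly. RefSeq promoter windows (GRCm38.p6, 250 bases before to 50 after a transcription start) were given for 8 of the 10 members, all but Gclc and Hmox1. The ARE core was searched as TGACNNNGC and TGAGNNNGC on both strands, and 6 of the 8 members held it in at least 1 window, against 27.8% of 32851 windows of all genes. The AP-1 motif TGACTCA, which can lie within either form of the ARE core, was found in 2 of the 8, Srxn1 and Osgin1, against 5.2% of all windows. The MRE core, TGCACNC or TGCGCNC, was found in 2 of the 8, Gclm and Srxn1, against 25.7%. A match describes the letters only, and Txnrd1 was given 3 windows and so had more sequence to match in. The members were chosen as genes of the Nrf2 response, and the counts are of genes while the shares are of windows. The comparison is therefore a description and not a test. The stretches below are shown because they hold the matches upstream of the start in members described here and in the metallothionein genes, with 25 bases to either side where the window and the start allow. Capitals mark the ARE core and AP-1 matches, except in Mt1, where they mark the MRE core, and each is written 5′ to 3′ on the strand of its gene.
Nfe2l2, chr2:75704870-75704913, minus strand: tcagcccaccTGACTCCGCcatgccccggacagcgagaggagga
Gclm, chr3:122245398-122245456, plus strand: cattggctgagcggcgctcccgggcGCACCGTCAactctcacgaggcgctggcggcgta
Txnrd1, chr10:82859089-82859147, plus strand: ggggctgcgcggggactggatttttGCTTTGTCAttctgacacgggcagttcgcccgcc
Srxn1, chr2:152105341-152105512, plus strand: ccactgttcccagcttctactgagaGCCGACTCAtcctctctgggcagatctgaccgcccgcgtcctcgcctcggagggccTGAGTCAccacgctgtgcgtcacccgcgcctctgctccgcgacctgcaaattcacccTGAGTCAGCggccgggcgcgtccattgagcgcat
Osgin1, chr8:119437023-119437081, plus strand: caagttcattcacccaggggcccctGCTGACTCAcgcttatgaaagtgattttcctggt
Mt2, chr8:94172514-94172572, plus strand: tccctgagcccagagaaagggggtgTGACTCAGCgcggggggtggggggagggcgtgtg
Mt1, chr8:94179041-94179088, plus strand: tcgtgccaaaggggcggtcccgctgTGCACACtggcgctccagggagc

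The ARE core of Mt2 began 79 bases before its RefSeq start, which itself lies 46 bases upstream of the gene in the count tables, and contains the AP-1 letters, as does the ARE core of Srxn1 that began 45 bases before the start. The Mt2 window held 4 MRE matches in addition, whereas the window of Mt1 held 3 MRE matches and no ARE core. These Mt1 matches began 23 bases before its RefSeq start and at positions 3 and 21 counted from that start. The RefSeq start of Mt1 lies 7 bases inside the gene as the count tables draw it. The lack of an ARE core in Mt1 holds for this window alone, and the sequence past its end was not searched. Slc7a11 had 1 ARE core, 97 bases before its start, and the windows of Keap1 and Nqo1 held none of these motifs. The window of Osgin1 with the match lies 3023 bases inside the gene as the count tables draw it, and that of Txnrd1 25255 bases inside, at later starts of these genes. The search says nothing of AREs farther from these starts.

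No member passed the test over all genes. After filtering, 9 of the 10 members were tested among 13400 genes with edgeR's quasi-likelihood test, and at an adjusted p under 0.05 (Benjamini-Hochberg over all genes tested) 0 of 9 were called, beside 0% of all genes. The count for members was also 0 with DESeq2 and limma-voom, which called 17 and 0 of all genes. At an unadjusted p under 0.05, 1 of the 9 members was called, Hmox1, which was lower in Mc1r LKO mice, beside 6.72% of all genes in either direction (2.87% lower and 3.86% higher). Hmox1 was also the 1 member that passed the unadjusted p at a log2 fold change of 0.25 or more in size, as 5.31% of all genes did. The groups of mice overlapped in every member, whereas they did not overlap in 4.16% of all genes. Of the 9 members tested, those above 0 in the log2 fold change numbered 4 and those below it 5. Their median was -0.06, beside 47.9% above 0 and a median of -0.01 over all genes tested. A single call among 9 genes is near the background share and is not a result about the members.

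**Figure D1:**
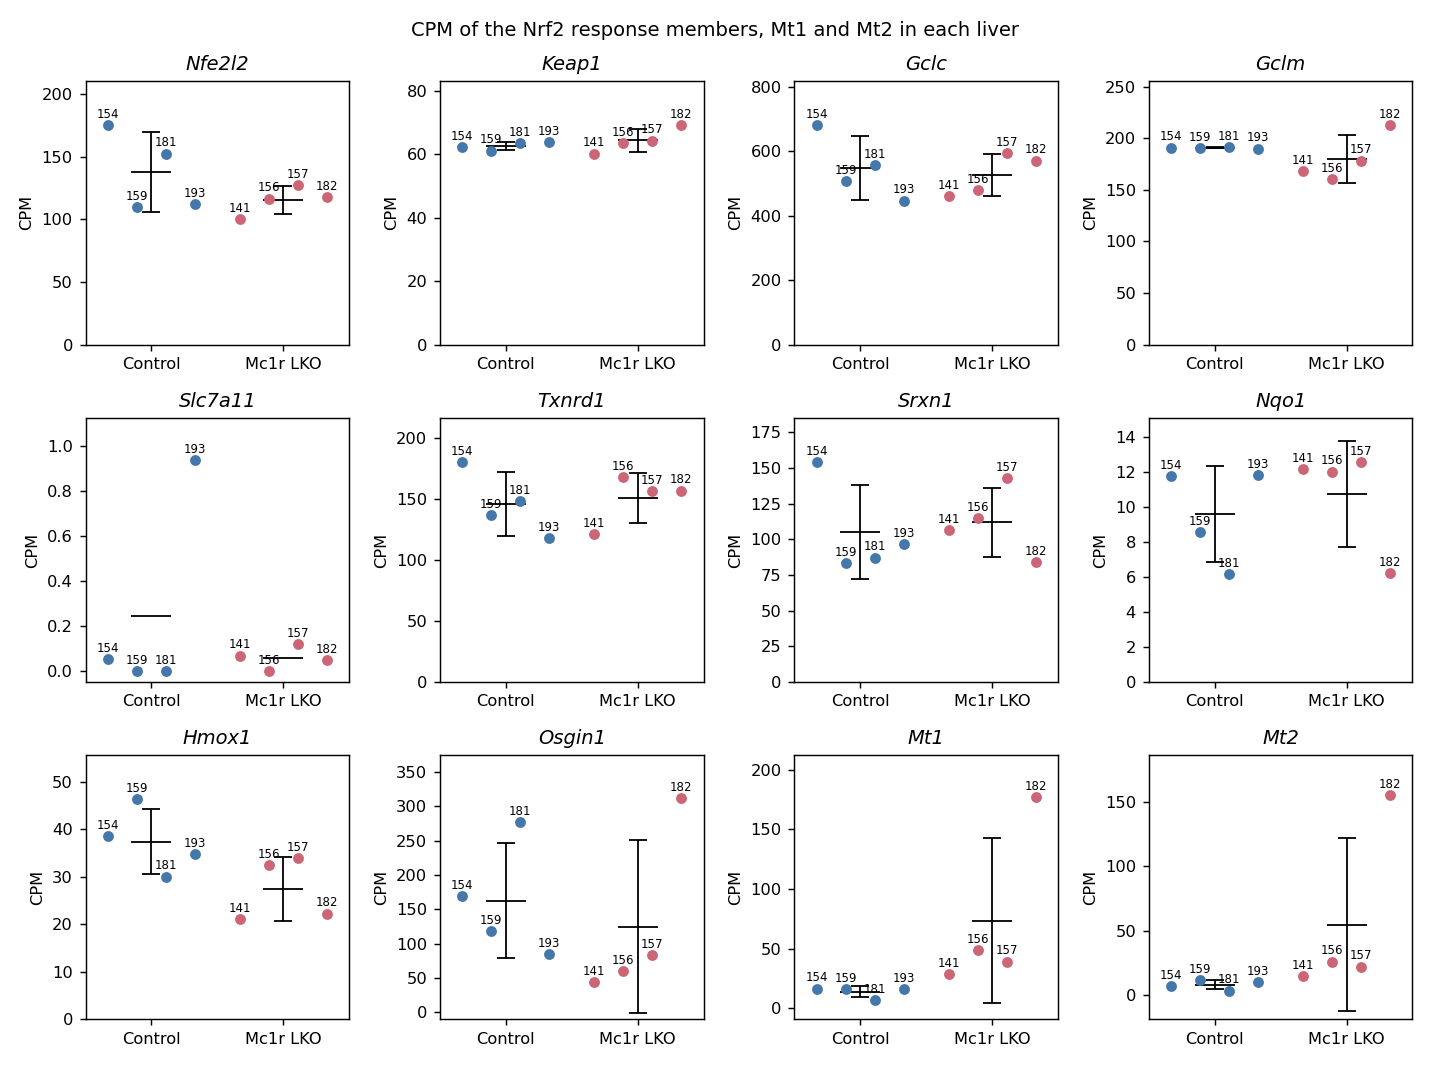
CPM (TMM-scaled) of the 10 members and of Mt1 and Mt2 in each liver, with control mice in blue, Mc1r LKO mice in red, the mouse number above each point, a bar at the mean and whiskers for the SD (mean alone for Slc7a11, n = 4 per group). The genotypes overlap in every member and do not overlap in Mt1 or Mt2, and mice 181 and 182 have the highest Osgin1 and the lowest Nqo1.

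The metallothioneins against which the members were set had much larger fold changes. Mt1 was at 16.5, 16.1, 6.93 and 15.9 CPM in control mice 154, 159, 181 and 193 and at 28.9, 49.0, 39.3 and 177 CPM in Mc1r LKO mice 141, 156, 157 and 182. The highest control was below the lowest Mc1r LKO mouse, and mouse 182 stood far above the other Mc1r LKO mice. The log2 fold change of Mt1 was 2.41 (SE 0.56, 95% interval 1.18 to 3.65, unadjusted p = 0.0014, adjusted p = 0.734 with edgeR), and that of Mt2 was 2.77 (SE 0.74, 95% interval 1.12 to 4.42). Among the members, the highest upper end of a 95% interval was that of Osgin1 at 0.92, followed by Nqo1 at 0.75, so with all 8 mice no member's interval reached the lower end of the interval of Mt1 or Mt2. Without mouse 182 the estimates were closer, at 1.51 in Mt1 (SE 0.27) and 1.39 in Mt2 (SE 0.34). Nqo1, the highest of the members in that fit, was then at 0.36 (SE 0.21). The intervals were compared with all 8 mice alone, so their separation is not shown for fits without mouse 182. Without mice 181 and 182, the log2 fold change of Mt1 was 1.28 and that of Mt2 1.14.

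**Figure D2:**
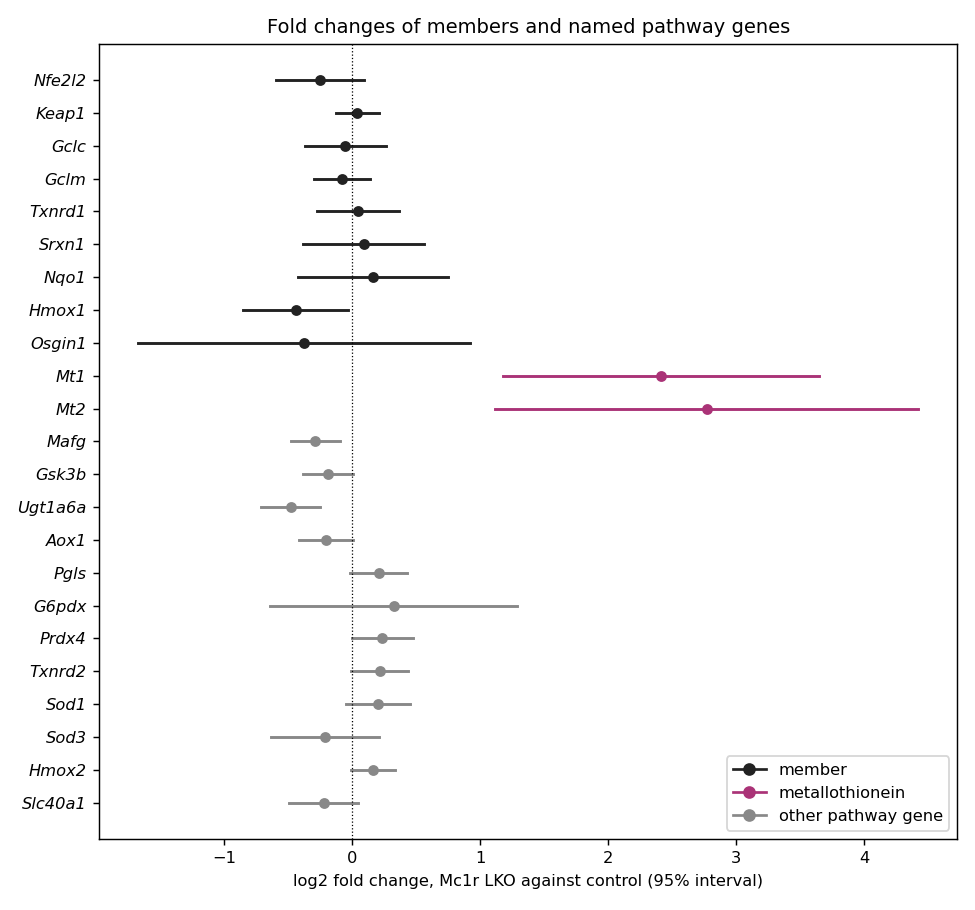
Log2 fold change of Mc1r LKO against control mice with its 95% interval (edgeR, n = 4 per group) for the 9 tested members in black, Mt1 and Mt2 in purple and the other named genes of the pathway in grey. The member intervals lie around 0, with Hmox1 just below it and Osgin1 the widest, and those of Mt1 and Mt2 begin at 1.18 and 1.12.

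The regulators came first. Nfe2l2 (chr2:75675513-75704641, minus strand) was at 175, 110, 152 and 112 CPM in control mice and at 99.97, 117, 127 and 118 CPM in Mc1r LKO mice, in the same order of mice as above. The control mice were the more spread, with mice 154 and 181 above every Mc1r LKO mouse and the other two controls within the Mc1r LKO range. The log2 fold change was -0.25 (SE 0.16, unadjusted p = 0.134, adjusted p = 0.827 with edgeR). Keap1 (chr9:21229730-21239361, minus strand), the repressor of Nrf2, was the steadiest of the tested members. It lay between 61.2 and 63.8 CPM in control mice and between 60.2 and 69.2 CPM in Mc1r LKO mice, its highest level was 1.15 times its lowest over the 8 livers, and its log2 fold change was 0.04 (95% interval -0.13 to 0.21). Without TMM factors, at library size alone, the value for Keap1 turned to -0.0084.

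The pair that makes glutathione was not called. Gclc (chr9:77754535-77794485, plus strand) is the catalytic subunit of glutamate-cysteine ligase, the rate-limiting enzyme of glutathione synthesis, and Gclm (chr3:122245557-122270732, plus strand) is its modifier subunit. Gclc was at 682, 507, 557 and 448 CPM in control mice and at 462, 481, 595 and 572 CPM in Mc1r LKO mice, with control mouse 154 the highest and control mouse 193 the lowest (log2 fold change -0.06, SE 0.14). Gclm was at 191, 190, 191 and 190 CPM in control mice and at 168, 161, 178 and 213 CPM in Mc1r LKO mice. The 4 controls were thus nearly identical in Gclm, and 3 of the 4 Mc1r LKO mice lay below them and mouse 182 above them. Its log2 fold change was -0.08 (SE 0.10, 95% interval -0.30 to 0.14), and -0.17 without mouse 182 (unadjusted p = 0.0622 with edgeR). Gclm shares 244 bases with the gene model Gm6061 on its strand, where reads can be lost to the counting.

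Slc7a11 (chr3:49892526-50443614, minus strand), the cystine transporter that brings in the substrate for glutathione, was hardly detected and did not pass the filter. It had 1, 0, 0 and 23 counts in control mice and 1, 0, 3 and 1 counts in Mc1r LKO mice. Control mouse 193 alone carried most of them, at 0.938 CPM, and the other 7 livers were at 0.121 CPM or below. A count of 0 allows up to 3 counts, which is between 0.156 and 0.279 CPM in the 3 mice at 0 and covers counting error only. No difference between the genotypes was detected (two-sided exact permutation test of CPM, p = 0.886), and a difference below these limits was not detectable at this depth.

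Of the members that pass electrons to thioredoxin and peroxiredoxin, neither was called. Txnrd1 (chr10:82833951-82897712, plus strand), the cytosolic thioredoxin reductase, was at 180, 137, 148 and 118 CPM in control mice and at 121, 168, 157 and 157 CPM in Mc1r LKO mice (log2 fold change 0.05, SE 0.14). Srxn1 (chr2:152105516-152111376, plus strand) encodes sulfiredoxin, which repairs over-oxidized peroxiredoxins. It was at 154, 83.5, 87.1 and 96.7 CPM in control mice and at 106, 115, 143 and 84.3 CPM in Mc1r LKO mice, for a log2 fold change of 0.09 (SE 0.21). Control mouse 154 was the highest of all 8 in both genes, as it was in Nfe2l2 and Gclc, 4 of the 9 members tested. Without mouse 154, the log2 fold change of Srxn1 was 0.33 (unadjusted p = 0.0685 with edgeR), and without mouse 182 it was 0.21.

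Nqo1 (chr8:107388225-107403206, minus strand), the quinone reductase that is often taken as the model target of Nrf2, was low in these livers. It was at 11.8, 8.55, 6.15 and 11.8 CPM in control mice and at 12.2, 12.0, 12.6 and 6.23 CPM in Mc1r LKO mice. The 2 lowest livers were 181 and 182, 1 of each genotype, and the other 3 Mc1r LKO mice lay above every control. Its log2 fold change was 0.16 (SE 0.26, 95% interval -0.43 to 0.75). It moved to 0.36 without mouse 182 (unadjusted p = 0.121 with edgeR), to -0.0038 without mouse 181, and to 0.19 without both.

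Hmox1 (chr8:75093621-75100589, plus strand), the inducible heme oxygenase that breaks heme down to biliverdin, iron and carbon monoxide, was the member with the smallest p. It was at 38.7, 46.4, 30.1 and 34.7 CPM in control mice and at 21.2, 32.4, 34.0 and 22.2 CPM in Mc1r LKO mice. Mice 141 and 182 lay below every control, and mice 156 and 157 lay within the control range. The log2 fold change was -0.44 (SE 0.18, 95% interval -0.85 to -0.03, unadjusted p = 0.0363, adjusted p = 0.734 with edgeR), and the adjusted p lay between 0.510 and 0.985 over 16 alternatives. A two-sided exact permutation test of its CPM gave p = 0.114. The unadjusted call was lost when control mouse 154 or 159, or Mc1r LKO mouse 141 or 182, was left out (log2 fold changes of -0.42, -0.32, -0.33 and -0.35), and it held without both 181 and 182 (-0.44, unadjusted p = 0.0373). Resident macrophages of the liver express Hmox1 strongly, and their markers were lower on average in the same direction: all 6 of 6 had a log2 fold change below 0, with 0 of 6 past an unadjusted p of 0.05 and none at 0 in every mouse. Their summed level was between 226 and 514 CPM in control mice and between 158 and 332 CPM in Mc1r LKO mice, and their part in the Hmox1 difference was not tested.

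Osgin1 (chr8:119434124-119446256, plus strand), an inhibitor of growth that oxidative stress induces, varied most among the members. It was at 169, 119, 276 and 84.9 CPM in control mice and at 44.0, 60.2, 83.7 and 312 CPM in Mc1r LKO mice, and its highest level was 7.08 times its lowest. Mice 181 and 182 were the highest in their groups, and the other 3 Mc1r LKO mice were below every control. The log2 fold change of -0.38 (SE 0.58, unadjusted p = 0.533) had a 95% interval from -1.67 to 0.92 and turned on these livers. It was -1.37 without mouse 182 (SE 0.37, unadjusted p = 0.0039 with edgeR), 0.01 without mouse 181, and -0.97 without both (SE 0.27, unadjusted p = 0.0051). At an unadjusted p under 0.05, the fit without mouse 182 called 1095 of 13674 genes and the fit without both 981 of 13385. Each called 0 genes at an adjusted p under 0.05.

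**Figure D3:**
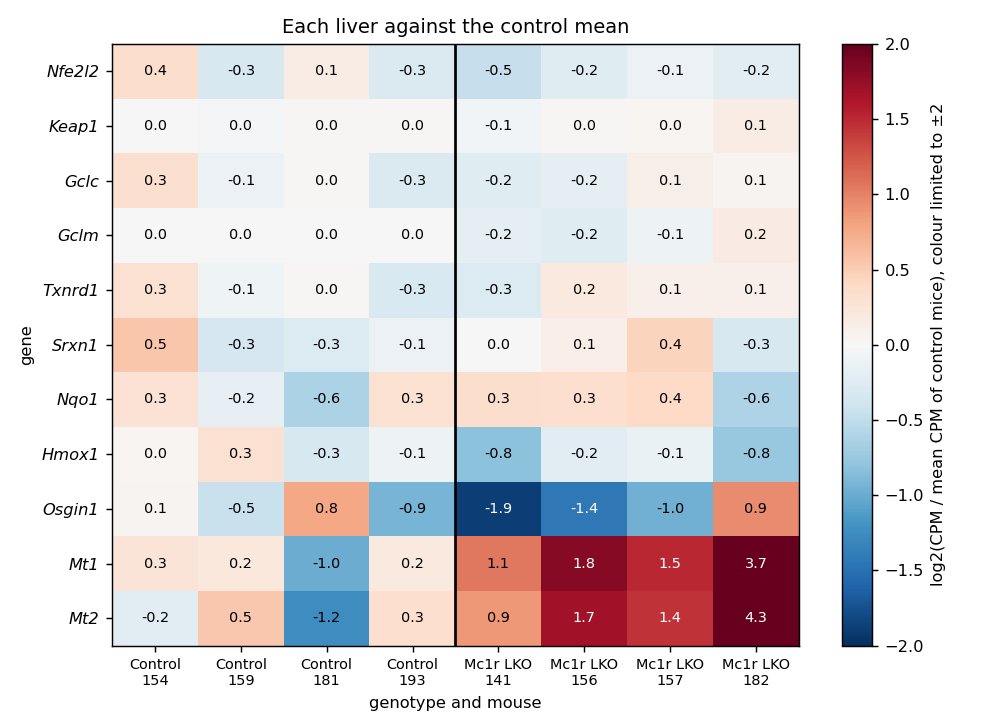
Each liver against the control mean, as log2 of its CPM over the mean CPM of the 4 control mice, with genes in rows, mice in columns, a vertical line between the genotypes, and the colour limited to ±2. Osgin1 is lower in Mc1r LKO mice 141, 156 and 157 and in control mice 159 and 193, and higher in 181 and 182, and Nqo1 is lower in 181 and 182. The Mt1 and Mt2 rows are above 0 in all Mc1r LKO mice.

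Per kilobase of exon, which allows levels of different genes to be compared, Gclc was by far the most abundant member at a mean of 143 CPM per kb. Osgin1 (53.7), Srxn1 (38.6), Nfe2l2 (33.3), Gclm (29.5) and Txnrd1 (20.9 CPM per kb) followed, and Hmox1 (18.5), Keap1 (13.5), Nqo1 (6.54) and Slc7a11 (0.0111 CPM per kb) were the lowest. The ranges over the 8 livers overlapped from each neighbour to the next from Osgin1 to Gclm and again from Txnrd1 to Keap1. Osgin1 and Hmox1 also overlapped members farther along, so the order from Osgin1 to Keap1 is fixed only in part. Srxn1, Nfe2l2 and Gclm (at least 29.6, 26.3 and 25.53 CPM per kb) lay above Txnrd1 (at most 25.47). Those 4 and Osgin1 (at least 16.5) lay above Keap1 (at most 14.8), whereas Hmox1 (12.1 to 26.5) overlapped it. Gclc, at 119 to 181 CPM per kb, lay above every other member's range, which for Osgin1 reached 117 CPM per kb. Nqo1, at 3.96 to 8.09 CPM per kb, lay below Keap1, at 12.8 to 14.8 CPM per kb.

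From mouse to mouse, no relation of a member with the metallothioneins passed the test. Mouse 181 had the lowest and mouse 182 the highest Mt1 and Mt2 of the 8, yet both were alike in Nqo1 (6.15 and 6.23 CPM) and in Osgin1 (276 and 312 CPM). Over the 8 mice, 18 relations were computed, of log2 CPM of the 9 tested members with Mt1 and with Mt2. None passed an adjusted p of 0.05 (Pearson's r, two-sided exact permutation test, smallest adjusted p = 0.721), none had an unadjusted p under 0.05, and 9 of the 18 were positive. By Spearman's rho the smallest adjusted p was 0.796 in the same permutation test. Because the genotypes do not overlap in Mt1 or Mt2, such a pooled value also carries the genotype. With each genotype centred on its own mean, 11 of the 18 were positive, r lay between -0.43 and 0.79, and the smallest adjusted p was 0.711 by exact permutation within genotypes. Without the 2 mice farthest from the median, 181 and 182, the smallest adjusted permutation p was 0.450, with 1 relation at an unadjusted p under 0.05. Leaving out mouse 182 alone brought 6 of 18 relations to an unadjusted p under 0.05, with a smallest adjusted p of 0.110. Within 1 genotype there are 4 mice, too few for a relation of its own.

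The wider pathway was read from 62 other genes in 6 lists, all of which were tested. At an unadjusted p under 0.05, 2 of the 62 were called, both lower in Mc1r LKO mice, beside 6.72% of all genes, and 0 passed the adjusted p with edgeR. Counts in each direction were 37 higher and 25 lower, with a median log2 fold change of 0.04. The groups did not overlap in 6 of the 62, beside 4.16% of all genes, of which 4 were higher (Rbx1, Txn2, Prdx1 and Hmox2) and 2 lower (Mafg and Ugt1a6a). Rbx1, Txn2 and Prdx1, and further on Gpx4, Prdx3, Txn1 and Ftl1, were named with their values known.

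Among the 10 partners and degradation genes of Nrf2, 4 were higher and 6 lower (median log2 fold change -0.04). Mafg, a small Maf protein that pairs with Nrf2 on the ARE, was at 91.8, 96.4, 107 and 90.8 CPM in control mice and at 78.4, 85.4, 78.1 and 73.8 CPM in Mc1r LKO mice. Every Mc1r LKO mouse was below every control, and the log2 fold change was -0.29 (SE 0.09, unadjusted p = 0.0074, adjusted p = 0.734). The unadjusted call held in all 16 alternatives (-0.33 to -0.20), and the adjusted p lay between 0.234 and 0.985. Mafg shares 124 bases with Sirt7 on its strand. Gsk3b, a kinase that marks Nrf2 for degradation independently of Keap1, had a log2 fold change of -0.19 (unadjusted p = 0.0570 with edgeR).

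Of the 20 conjugation, carbonyl reduction and export genes, 13 were lower and 7 higher (median -0.09), and Ugt1a6a was called. The direction of the list rested on mouse 182: without it 14 were higher and 6 lower (median 0.053), and without both 181 and 182 the split was 9 higher and 11 lower (median -0.012), with Ugt1a6a called in each fit. Ugt1a6a, which glucuronidates phenols, was at 13.0, 13.7, 13.7 and 13.4 CPM in control mice and at 9.20, 10.5, 9.57 and 9.20 CPM in Mc1r LKO mice. The groups were well apart and each was narrow, with a log2 fold change of -0.48 (SE 0.10, unadjusted p = 9.2e-04, adjusted p = 0.734 with edgeR, and 0.0676 to 0.985 over the alternatives). It shares 2170 of its 4312 exonic bases with 8 other Ugt1a genes, so its counts rest on the part it does not share. Aox1, an aldehyde oxidase, had the next smallest p in the list (log2 fold change -0.20, unadjusted p = 0.0588 with edgeR).

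The other 15 glutathione and thioredoxin genes were mostly above 0, with 14 of 15 higher, a median log2 fold change of 0.14 and a range from -0.02 to 0.23. None of the 15 was called at an unadjusted p under 0.05 in the main fit. DESeq2 called Prdx1 and Txn2, beside 937 of 13400 genes, and upper quartile scaling Txnrd2, beside 876 of 13400. Prdx4 was called with limma-voom (899 of 13400 genes called), RLE scaling (909 of 13400) and a filter of 1 count in any mouse (1225 of 24087). Without mouse 182 the calls were Gpx4 and Prdx3, beside 1095 of 13674 genes. Without both 181 and 182 they were Gpx4 and Txnrd2, beside 981 of 13385 genes, with 13 of 15 higher in each. The genes called differed with the mouse left out: Prdx4 and Txn1 without 159, Prdx4 and Txn2 without 157, and Txnrd2 without 181 or without 141. Of all genes, the fit without 159 called 921 of 13695 and that without 157 called 817 of 13624. The fit without 181 called 891 of 13657 and that without 141 called 688 of 13718. None was called without 154, 193 or 156. Prdx4, a peroxiredoxin of the endoplasmic reticulum, was at 37.5, 48.4, 38.9 and 40.0 CPM in control mice and at 46.3, 50.5, 43.3 and 53.4 CPM in Mc1r LKO mice (log2 fold change 0.23, unadjusted p = 0.0517 with edgeR). Txnrd2, the mitochondrial thioredoxin reductase, had a log2 fold change of 0.21 (unadjusted p = 0.0594 with edgeR). At library size alone, 13 of 15 were higher and the median was 0.10.

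In the small lists no gene was called with all 8 mice by edgeR with TMM. Of the 7 NADPH supply genes 5 were higher (median 0.04), with Pgls, which shares 776 bases with Fam129c, at 0.21 (unadjusted p = 0.0697 with edgeR) and G6pdx, the first enzyme of the pentose phosphate pathway, at 0.32 (SE 0.43). Without mouse 182, all 7 of 7 were higher (median 0.19), Pgls was called (0.29, unadjusted p = 0.0077 with edgeR) and G6pdx was at 0.63 (unadjusted p = 0.0598 with edgeR). Without both 181 and 182, again 7 of 7 were higher (median 0.20) with Pgls called, and without control mouse 193 the split was 3 higher and 4 lower. G6pdx was lowest in mice 182 and 181 (3.68 and 5.16 CPM), as Nqo1 was, and at 7.58 to 17.5 CPM in the other 6. Of the 4 superoxide and peroxide genes 2 were higher and 2 lower, with Sod1, the cytosolic superoxide dismutase, at 0.20 (SE 0.11) and Sod3 at -0.21 (SE 0.19). Without control mouse 159, Sod1 was called, at 0.32 (unadjusted p = 0.0063 with edgeR), and so was Pgls, beside 921 of 13695 genes. Of the 6 heme and iron genes 5 were higher (median 0.09). Hmox2, the constitutive partner of Hmox1, was at 45.0, 41.8, 40.0 and 44.0 CPM in control mice and at 46.1, 47.2, 50.0 and 47.8 CPM in Mc1r LKO mice. All Mc1r LKO mice were above all controls, by a log2 fold change of 0.16 (SE 0.08, unadjusted p = 0.0601, adjusted p = 0.753 with edgeR), which did not pass the test. Slc40a1, the iron exporter ferroportin, was at -0.22 (SE 0.12). At library size alone it was called, at -0.27 (unadjusted p = 0.0367 with edgeR), beside 798 of 13400 genes. Slc40a1, lower, and Ftl1, a ferritin subunit, were called without mouse 182 and also without both 181 and 182, at -0.28 and -0.31 in the case of Slc40a1. Those fits called 1095 of 13674 and 981 of 13385 genes. Without control mouse 154, Ftl1, Hmox2 and Slc40a1 were called, beside 837 of 13735 genes.

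**Figure D4:**
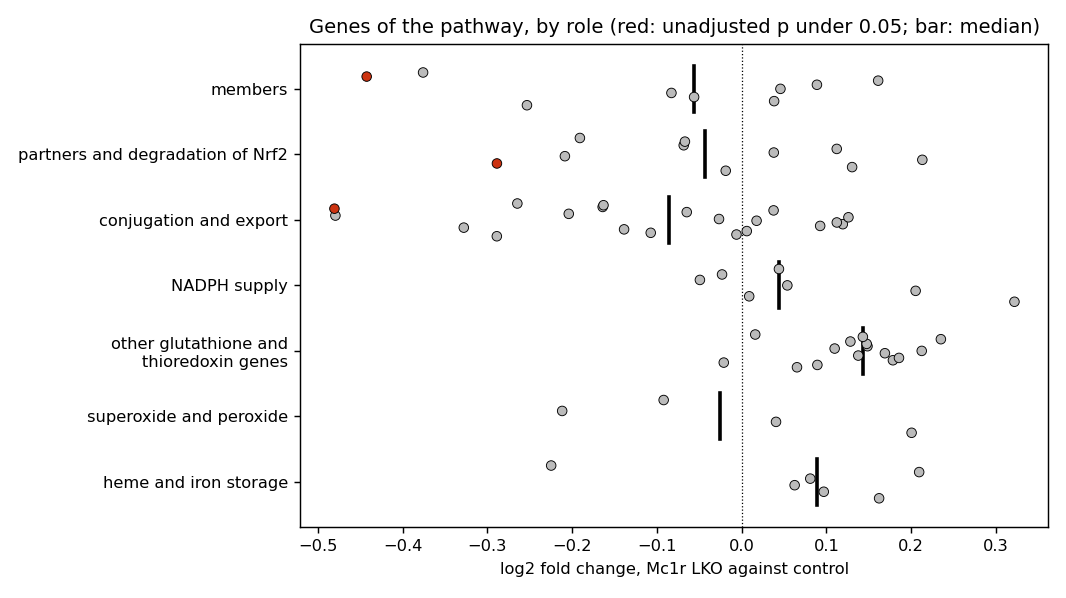
Log2 fold change of every tested member and of the 62 other pathway genes, 1 point a gene, grouped by role, with red points at an unadjusted p under 0.05 in edgeR and a bar at the median of each group. The 3 red points are Hmox1, Mafg and Ugt1a6a, all below 0, and 14 of the 15 glutathione and thioredoxin genes lie above 0.

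In the metallothionein list itself, the calls were Mt1 and Mt2, whereas Mtf1, the zinc-sensing factor, and the zinc exporter Slc30a1 were not called. Mtf1 had a log2 fold change of 0.02 (unadjusted p = 0.900 with edgeR), and Slc30a1, a target of MTF1 that zinc induces, one of -0.15 (unadjusted p = 0.173). This pair was picked with the values in view.

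The genes whose log2 CPM followed Nqo1 most closely over the 8 mice, among 13391 tested genes that are not members, were Psd4, Fbn1, Pea15a, Calm3 and Cib3, with Pearson's r from 0.970 to 0.980. They share the low level in mice 181 and 182 (Cib3 at 1.30 and 0.971 CPM, against 3.16 to 7.40 CPM in the other 6). Markers of several cell types other than hepatocytes were also low in these mice. Summed markers were at 22.6 and 20.5 CPM for recruited macrophages (42.8 to 60.2 CPM in the other 6). For bile duct cells they were at 59.4 and 29.7 CPM (92.9 to 255 CPM). Sinusoidal endothelial cell markers were at 148 and 118 CPM (167 to 187 CPM), and stellate cell markers at 264 and 245 CPM (308 to 412 CPM). T and B cell markers were at 1.41 and 1.79 CPM (2.34 to 5.49 CPM), a very low level at which 1 of the 6 genes passed the filter. Markers of blood cells, resident macrophages and neutrophils did not set both mice below the other 6. Blood cell markers were at 239 and 218 CPM, above mouse 193 at 172 CPM. Resident macrophage markers were at 226 CPM in mouse 181, above mouse 141 at 208 CPM. Neutrophil markers were at 3.47 CPM in mouse 182, above mouse 156 at 3.12 CPM. The part of these cell types in the levels of Nqo1 and the 5 genes was not tested. Without mice 181 and 182 r was between 0.835 and 0.959. The points share the library, and the genes were picked for this likeness, so these values are a description.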

How the data were processed

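Livers of 4 control and 4 Mc1r LKO mice were sequenced as poly(A) libraries prepared with a stranded kit. Per the submitters' processing notes, reads were handled with Trim Galore 0.6.6, STAR 2.7.6a and Subread 2.0.1 on GRCm38. The authors deposited, for each mouse, a table of raw counts (read pairs assigned to each gene, by strand), neither scaled nor filtered. The headers give an Ensembl annotation of GRCm38, whereas the methods write GRCh38, and coordinates here are those of the tables. Symbols matched 55141 of 55487 identifiers. No column of per-sample values was left unused (0).

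From these counts, genes were filtered with filterByExpr (minimum count 10, minimum total 15), which left 13400, and scaled by TMM. The quasi-likelihood test of edgeR 4.0.16 was run in R 4.3.3, and p-values were adjusted over all 13400 by Benjamini-Hochberg. The methods name this filter and scaling and do not name the test. CPM values use the TMM-scaled library size for all genes, and log2 CPM a prior count of 2. Intervals are 95% and floors are 3 counts. The script was checked on simulated counts. Each p-value judges a difference or a relation against the variation between these mice. The labels name no litter, cage or other pairing between the genotypes, so no fit with a replicate block was made.

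The members and gene lists were chosen with earlier results of these data known. Named genes are the members, Mt1 and Mt2, each other list's genes at an unadjusted p under 0.05 and its 2 smallest p-values, and the 5 genes most correlated with Nqo1. Alternatives were DESeq2 1.42.0, limma-voom (limma 3.58.1), RLE, upper quartile and library size scaling, a filter of 1 count in any mouse, robust dispersion and leaving out each mouse. Leaving out both 181 and 182 was added after seeing the data. No batch is named in the labels. Promoter sequences came from RefSeq (GRCm38.p6).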

Additional observations from a re-analysis of the deposited data

Results flagged for a closer look

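Within each genotype, a mouse was singled out where its gap to the nearest other mouse took up most of the range of the group (Dixon's ratio above its 95% critical value). Of 58 groups checked over the named genes, 7 met this, and chance gives about 1 in 20, here 2.9. That figure assumes normally distributed values, and CPM need not be so. The genes are also related to each other, and some were picked by their p or their likeness to Nqo1, so 2.9 is a rough guide and not a test. In control mice, Slc7a11 was at 0.938 CPM in mouse 193 and at most 0.0532 CPM in the others, Mt1 was at 6.93 CPM in mouse 181 and between 15.9 and 16.5 CPM in the others, and Sod1 was at 1037 CPM in mouse 159 and between 773 and 799 CPM in the others. In Mc1r LKO mice, all 4 cases were mouse 182. Its Nqo1 was at 6.23 CPM against 12.0 to 12.6 CPM in the others, and its Osgin1 was at 312 CPM against 44.0 to 83.7 CPM. Its Mt1 was at 177 CPM against 28.9 to 49.0 CPM, and its Mt2 at 155 CPM against 14.8 to 25.9 CPM. What sets mouse 182 apart was not tested.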

How the results depend on the processing

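Under every alternative fit, 0 of 9 members passed an adjusted p of 0.05. No relation with Mt1 or Mt2 did either under those run for them, which were rank correlation, centring, library size alone, dropping the 2 farthest mice and leaving out each mouse. Genes called at an adjusted p were 0 with edgeR, 17 with DESeq2 and 1 with a filter of 1 count in any mouse. Of the 9 members, 1 was called at an unadjusted p in the main fit, beside 901 of 13400 genes. Between 0 and 1 were called when each mouse was left out, and 2 without both 181 and 182. Of the 62 other pathway genes, 2 were called in the main fit and 4 with DESeq2, beside 937 of 13400 genes. The count was also 4 with upper quartile and with library size scaling, beside 876 and 798 of 13400 genes. It lay between 2 and 7 when each mouse was left out and was 7 without 181 and 182. Over all genes, those fits called 674 to 1095 when each mouse was left out, and 981 of 13385 without 181 and 182. The median log2 fold change of the members lay between -0.09 and 0.04 when each mouse was left out. At library size alone, 28.3% of the genes called at an unadjusted p were higher in Mc1r LKO mice, against 57.4% with TMM. Of single genes, Keap1 turned to -0.0084 at library size alone and Psd4 to -0.0081 with limma-voom. When each mouse was left out the log2 fold change lay between -0.14 and 0.071 in Gclc, -0.037 and 0.17 in Txnrd1, -0.041 and 0.33 in Srxn1, -0.0038 and 0.36 in Nqo1, -1.37 and 0.013 in Osgin1, -0.12 and 0.24 in Psd4, -0.013 and 0.31 in Pea15a, and -0.051 and 0.63 in Cib3. Of all values of named genes under an alternative, 402 kept their direction and side of the unadjusted threshold, 26 crossed to below it, 4 lost it and 16 turned direction; the cause was not tested. No paired analysis was made because the labels name no litter, cage or other pairing of the mice. Counts of 3 or fewer set the limit in Slc7a11, and 4 mice per group set it elsewhere.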
